A study of Rattus norvegicus with 10 samples.

Results

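Antibody genes were described in liver RNA of diabetic rats after sleeve gastrectomy (SG), an operation that removes most of the stomach, and after a sham operation (SHAM). The members were Jchain, every gene whose name begins with Igh, Igk or Igl, and every contig-named or locus-numbered gene in the windows of 3 loci in the Rnor_6.0 genome. The heavy chain members lie at chr6:138051878-146470456, those of the kappa light chain at chr4:98457382-103762259 and those of the lambda light chain at chr11:85042348-86929588. The rule gave 146 gene identifiers of 21981, summed from 243 isoforms placed by the assembly on a known transcript. Members were selected on name, position and assembly class alone, but the rule was proposed after higher SG than SHAM levels of these genes had been seen in the same libraries, so the SG and SHAM values below are a description of that choice. Most carry only the number of a genome contig, such as AABR07060872, because the annotation gives them no symbol.

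The SG group was 5 livers of wild-type Wistar rats taken 3 months after the operation, and the SHAM group was 5 livers of wild-type Wistar rats for which the labels give no time. A difference in time and the operation therefore cannot be told apart. All rats, SHAM included, had eaten a diet with 60% of its calories as fat for 4 weeks and had received 35 mg/kg streptozotocin, which destroys insulin-making cells, after 16 h without food. Fasting glucose above 16.7 mmol/L, 3 days after the injection, was the condition for entering a group. The study was made to profile long non-coding RNA after this operation, and the labels do not state whether libraries stem from separate rats. The spread behind every p-value is that between libraries and may be technical. The comparison below asks how far antibody RNA differed between the SG and SHAM livers.

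An antibody is built from heavy and light chains, and each chain joins a variable part, which meets the antigen, to a constant part. B cells assemble the variable part by joining gene segments, and a heavy chain can later switch to another constant gene, which gives the classes IgM, IgG, IgA and IgE. Plasma cells, the secreting form of B cells, make this RNA in very large amounts; hepatocytes are not known to make it. Jchain encodes the joining chain that links IgA and IgM units into polymers, which the polymeric immunoglobulin receptor, Pigr, carries across epithelia and, in rats, from hepatocytes into bile.

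Every class of immunoglobulin RNA had a higher mean in SG than in SHAM, and 1 library in each group stood above the others. Summed over the 113 members with an immunoglobulin annotation, the level was 405.6, 919.7, 259.1, 345.2 and 299.3 FPKM (fragments scaled to transcript length and library depth) in SG 1 to SG 5, against 95.9, 63.4, 368.1, 159.1 and 179.0 FPKM in SHAM 1 to SHAM 5. SG 2 was the highest of all, SHAM 3 lay above 3 of the 5 SG libraries, and the other 4 SHAM libraries were below every SG library. The mean log2 level was 1.46 higher in SG (pooled SD within groups 0.85), which is a description with no test. These members took 0.0307% to 0.0971% of the estimated counts of an SG library and 0.00747% to 0.0413% of those of a SHAM library. In whole liver, more antibody-making cells and more antibody RNA per cell cannot be told apart.

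**Figure D1:**
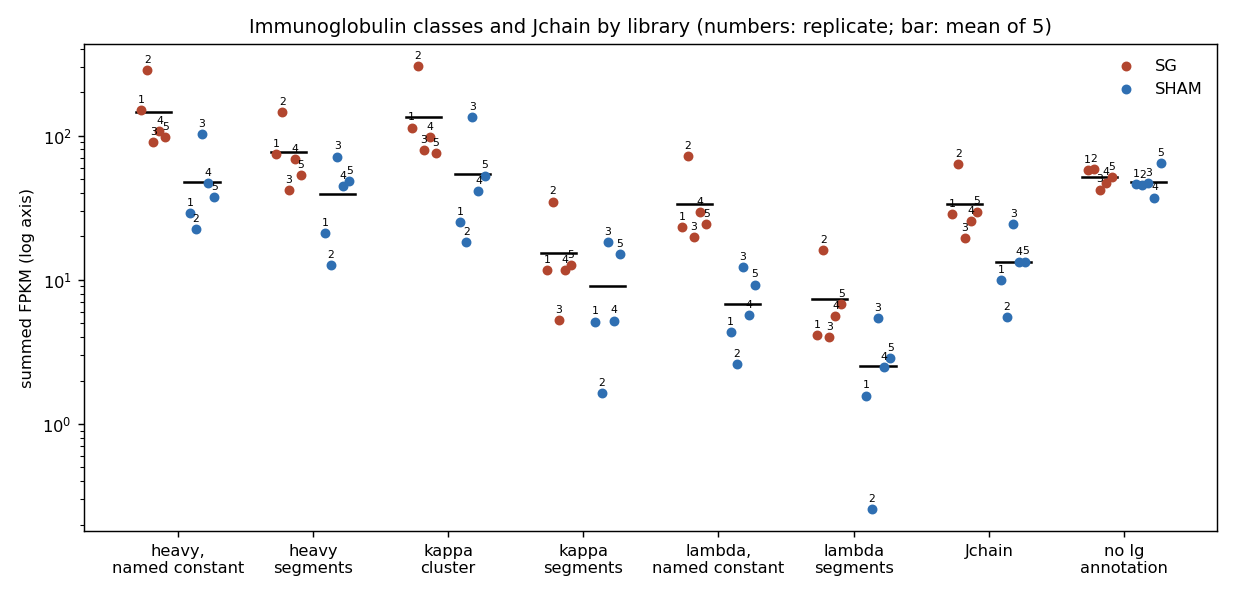
Summed FPKM (log axis) of 7 immunoglobulin classes, and of the members without immunoglobulin annotation, in each of 5 SG and 5 SHAM libraries; numbers give the replicate and bars the mean. The last class also holds 3 isoforms of LOC100910275 that the assembly merged with Ighm. SG 2 is the highest library in every class but the last, SHAM 3 the highest SHAM library in every class but the last, and the named lambda constant genes are the class in which the 2 groups do not overlap.

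Among heavy chain genes the table names only Ighm, Igh-6 and Ighg1 as constant genes. Ighm encodes the constant part of IgM, and Ighg1 that of IgG1, a main class of blood antibody. Together they had 150.9, 285.0, 89.5, 107.0 and 97.2 FPKM in SG 1 to SG 5, against 28.8, 22.5, 102.1, 46.9 and 37.6 FPKM in SHAM 1 to SHAM 5. The groups overlapped through SHAM 3 alone, which exceeded SG 3 and SG 5. The ratio of geometric means was 3.21.

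Ighg1 (chr6:139140679-139142218) showed the largest fitted difference of the tested members. It had 16.2, 25.4, 2.05, 13.9 and 6.94 FPKM in SG 1 to SG 5, against 0.896, 0.679, 3.03, 0.962 and 1.36 FPKM in SHAM 1 to SHAM 5. Only SG 3, the lowest SG library, fell among the SHAM values, below SHAM 3. The mean was 12.9 ± 8.96 FPKM in SG against 1.39 ± 0.95 FPKM in SHAM (± SD, n = 5 each). Its log2 fold change was 3.09 ± 0.66 (SE) and lay between 2.69 and 3.63 when single libraries were left out. It did not pass in edgeR's quasi-likelihood test over all genes (adjusted p = 0.994), while DESeq2 gave an adjusted p of 0.000365. Within the named heavy constant RNA, Ighg1 made up 10.8%, 8.91%, 2.29%, 13.004% and 7.15% in SG 1 to SG 5, against 3.11%, 3.01%, 2.97%, 2.05% and 3.62% in SHAM 1 to SHAM 5. In this share too SG 3 lay with the SHAM libraries and the other 4 SG libraries above all of them.

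The Ighm and Igh-6 transcripts form 1 merged gene of the assembly (chr6:138051878-138662511, minus strand). It had 138.4, 264.8, 89.3, 96.8 and 93.4 FPKM in SG 1 to SG 5, against 33.0, 27.2, 103.4, 50.0 and 40.6 FPKM in SHAM 1 to SHAM 5. The log2 fold change was 1.16 ± 0.38 (SE, adjusted p = 0.994 in edgeR). The assembly also merged into it 3 isoforms of LOC100910275, which encodes an integral membrane protein like DGCR2 and no antibody. They held 5.23% to 9.07% of the estimated counts of the merged gene in SG and 7.89% to 40.8% in SHAM. With those isoforms left out, an analysis chosen after seeing the data, the log2 fold change was 1.37 ± 0.46 (SE, adjusted p = 0.994 in edgeR).

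The 22 antibody isoforms of this cluster end at 6 places on the minus strand, here given by their distance from the first 3′ end, and the groups differed unevenly between them. In mammals the constant genes of the heavy chain lie in a row, each with its own 3′ end, with the mu gene nearest the joining segments. The table calls all of these ends Ighm or Igh-6 and names no class for each, so none is assigned here. Reads of overlapping isoforms were divided by estimate. Grouping isoforms by end was chosen after seeing the data and carries no test.

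Isoforms ending at 95 kb had 77.6, 135.0, 50.9, 42.7 and 41.7 FPKM in SG 1 to SG 5, against 5.35, 6.37, 43.4, 9.07 and 8.84 FPKM in SHAM 1 to SHAM 5. Only SHAM 3 reached the SG range. Of the cluster's antibody FPKM they supplied 52.0 ± 6.0% in SG livers and 27.2 ± 10.1% in SHAM (± SD, n = 5 each), with a range of 45.8% to 58.2% in SG against 19.1% to 43.8% in SHAM. The groups did not overlap in this share of FPKM. In shares of estimated counts they did: 37.4% to 54.9% in SG and 17.2% to 38.5% in SHAM, with SG 5 below SHAM 3.

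Isoforms ending at the first place, 0 kb, went the other way in share and were no higher in level. They had 13.1, 11.7, 11.2, 6.47 and 4.35 FPKM in SG 1 to SG 5, against 9.48, 4.17, 21.3, 11.1 and 8.37 FPKM in SHAM 1 to SHAM 5. SG and SHAM values were interleaved, and the ratio of means was 0.862. Their share was 4.53% to 12.9% in SG and 19.1% to 33.9% in SHAM, again with no overlap.

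At 40 kb the mean was 36.9 ± 20.7 FPKM in SG against 15.7 ± 6.5 FPKM in SHAM (± SD, n = 5 each). At 62 kb it was 9.28 ± 7.71 FPKM in SG against 1.10 ± 0.75 FPKM in SHAM, the widest ratio of means of the 5 ends with signal in both groups (8.44), and SG 3 at 1.95 FPKM lay below SHAM 3 at 2.27 FPKM. At 185 kb it was 7.83 ± 6.60 FPKM in SG against 3.96 ± 3.33 FPKM in SHAM. The end at 15 kb was listed at 0 in all but SG 1 and SG 2, where it had 0.031 and 0.023 FPKM.

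**Figure D2:**
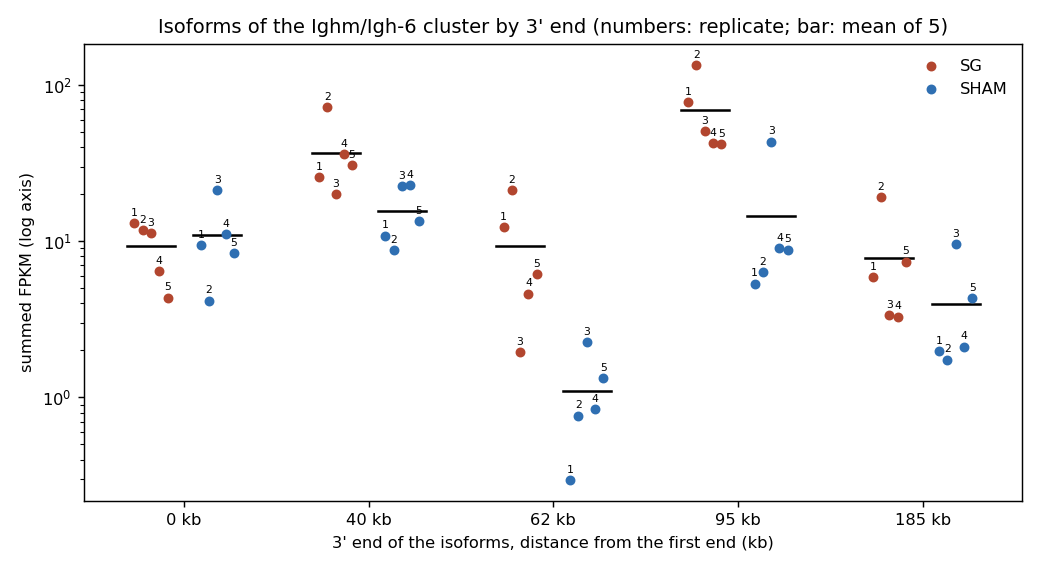
Summed FPKM (log axis) of the Ighm and Igh-6 isoforms by the distance of their 3′ end from the first, in each SG and SHAM library; numbers give the replicate, bars the mean, and the end at 15 kb is not drawn. SG and SHAM points are interleaved at 0 kb, while at 95 kb the SG libraries have 41.7 to 135.0 FPKM and 4 SHAM libraries are under 10.

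Lambda light chains differed most clearly between the groups and kappa light chains less. A B cell uses a kappa or a lambda chain, seldom both, and rodents use mostly kappa. The lambda constant gene that the table describes as Ig lambda-2 chain C region (AABR07034736/AABR07034739, chr11:85947127-86092912) had 22.5, 69.9, 19.8, 29.1 and 24.1 FPKM in SG 1 to SG 5, against 4.22, 2.58, 11.8, 5.53 and 9.15 FPKM in SHAM 1 to SHAM 5. All 5 SG libraries were above all 5 SHAM libraries. The log2 fold change was 2.28 ± 0.51 (SE), with an adjusted p of 0.994 in edgeR and 0.0031 in DESeq2. The second lambda constant member, AABR07034739 with a start at 86094567 and a C1-region-like description, was hardly detected, at a mean of 0.525 FPKM in SG against 0.151 FPKM in SHAM.

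The table names no kappa constant gene. The kappa locus instead holds a merged gene of 14 isoforms (AABR07060872/AABR07060886, chr4:98457382-98542683) annotated to immunoglobulin production, which made up 25.2% to 32.9% of the immunoglobulin FPKM of an SG library and 25.9% to 36.5% of that of a SHAM library. Its level was 113.5, 302.7, 79.5, 97.3 and 75.5 FPKM in SG 1 to SG 5, against 24.9, 18.2, 134.5, 41.2 and 52.7 FPKM in SHAM 1 to SHAM 5. SHAM 3 was above every SG library but SG 2. The log2 fold change was 1.27 ± 0.51 (SE, adjusted p = 0.994 in edgeR), and it was 0.77 without SG 2 and 1.78 without SHAM 3.

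The ratio of the kappa cluster to the named lambda constant genes separated the groups. The lambda constant level did so by itself, and no such ratio was formed for the kappa and lambda segments. A general shift in the balance of the 2 light chains is therefore not shown. The kappa cluster stood at 4.92, 4.23, 4.01, 3.32 and 3.12 times the lambda constant level in SG 1 to SG 5, against 5.77, 7.04, 11.01, 7.24 and 5.70 times in SHAM 1 to SHAM 5. No SG library reached the lowest SHAM library, and this held for SHAM 3, whose immunoglobulin level was like that of the SG livers. The balance of heavy to light chains did not separate the groups: the named heavy constant level over the sum of kappa cluster and lambda constant was 0.762 to 1.105 in SG and 0.607 to 1.09 in SHAM. These ratios were formed after the levels were seen and carry no test.

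**Figure D3:**
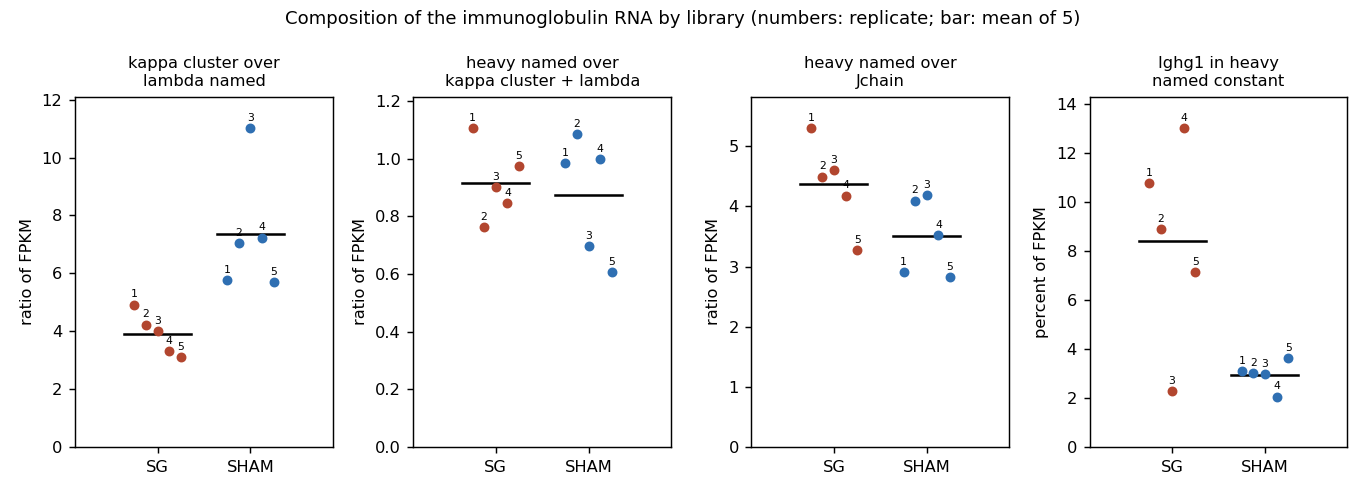
Ratios of FPKM between antibody classes and the share of Ighg1 in the named heavy constant FPKM, for each SG and SHAM library; numbers give the replicate and bars the mean of 5. The ratio of kappa cluster to lambda is 3.12 to 4.92 in SG and 5.70 to 11.01 in SHAM, while heavy over light chain ratios overlap and SG 3 lies with SHAM in the Ighg1 share.

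The heavy chain segments, 73 members, were numerous and low. The table does not call them variable genes, but 67 of the 73 have 1 or 2 exons and their median longest transcript is 351 bases, and 71 are annotated to antigen binding. Their sum was 73.9, 146.2, 41.6, 68.8 and 53.3 FPKM in SG 1 to SG 5, against 21.2, 12.6, 71.3, 44.3 and 48.2 FPKM in SHAM 1 to SHAM 5. Here 3 SHAM libraries exceeded the lowest SG library. The mean was higher in SG for 55 members and lower for 16, and 2 were at 0 in every library.

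No single segment member dominated the heavy chain locus. Some members are merged genes of the assembly and count here as 1 segment each. AABR07065684/AABR07065693/AABR07065699 pools 11 isoforms over chr6:139293065-139560489. AABR07065768/AABR07065772/AABR07065773 pools 5 isoforms over chr6:140485452-140752996. The leading segment held 8.01% to 9.42% of the segment FPKM in SG libraries and 10.3% to 16.5% in SHAM libraries, and the number of segments above 0 was 46 to 58 in SG and 34 to 56 in SHAM. Fewer reads leave more segments at 0, and the part of depth in these counts was not tested. AABR07065684/AABR07065693/AABR07065699, AABR07065837, AABR07065776 and AABR07065789 each led in 1 or more SG libraries.

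Of the 5 segment members with the highest mean, the merged AABR07065768/AABR07065772/AABR07065773 (start 140485452) had no overlap between the groups. It had 3.46, 7.70, 2.72, 4.21 and 4.52 FPKM in SG 1 to SG 5, against 0.973, 0.930, 2.04, 1.99 and 2.32 FPKM in SHAM 1 to SHAM 5. Its log2 fold change was 1.33 ± 0.37 (SE, adjusted p = 0.994 in edgeR). AABR07065776 (start 140879774) had a log2 fold change of 1.36 ± 0.49 (SE), with only SHAM 3 inside the SG range. The other 3 differed by less than their standard error: 0.55 ± 0.86 for AABR07065837, 0.28 ± 0.52 for AABR07065789 (start 141320809) and 0.12 ± 0.53 for AABR07065684/AABR07065693/AABR07065699. Single libraries weighed on these: AABR07065789 had 1.12 without SHAM 3 and AABR07065837 had 1.19 without SHAM 5. Differences between segments were not tested.

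Among less abundant segments, AABR07065782 (start 141198248) had a log2 fold change of 1.83 ± 0.46 (SE), from a mean of 1.65 ± 0.74 FPKM in SG against 0.419 ± 0.244 FPKM in SHAM (± SD, n = 5 each). AABR07065815 (start 142635329) had 5.96, 11.1, 3.07, 1.68 and 2.26 FPKM in SG 1 to SG 5, against 0.626, 0.463, 1.75, 1.46 and 1.51 FPKM in SHAM 1 to SHAM 5. SHAM 3 exceeded SG 4 alone, and the log2 fold change was 1.91 ± 0.59 (SE). Both belong to the 5 smallest p-values among members with higher values in SG, and neither passed in edgeR (adjusted p = 0.994 for each).

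The 30 kappa segments summed to 11.6, 34.8, 5.23, 11.7 and 12.6 FPKM in SG 1 to SG 5, against 5.13, 1.64, 18.2, 5.21 and 15.0 FPKM in SHAM 1 to SHAM 5, with SHAM 3 and SHAM 5 above 4 of the SG libraries. The most abundant were AABR07061052, with 3.07 ± 2.34 FPKM in SG against 1.61 ± 1.36 FPKM in SHAM, and AABR07061001, with 3.05 ± 2.93 FPKM in SG against 1.60 ± 1.39 FPKM in SHAM (± SD, n = 5 each). AABR07060979, AABR07061005 (start 102643934) and AABR07060952/AABR07060953/AABR07060963 followed, with means of 1.83, 1.17 and 0.818 FPKM in SG and 1.12, 1.02 and 0.574 FPKM in SHAM. All of these differences were within the spread between libraries. The 4 lambda segments summed to 4.11, 16.0, 3.99, 5.61 and 6.76 FPKM in SG 1 to SG 5, against 1.57, 0.256, 5.44, 2.48 and 2.88 FPKM in SHAM 1 to SHAM 5. The segment AABR07034730 with its start at 85532526 led the lambda segments in all 5 SG libraries and in 2 SHAM libraries. It had 5.15 ± 3.72 FPKM in SG against 1.36 ± 1.39 FPKM in SHAM (± SD, n = 5 each), with a log2 fold change of 1.76 ± 0.75 (SE, adjusted p = 0.994 in edgeR). A neighbour under the same contig name, with its start at 85508300, had 0.93 ± 0.53 (SE). The other lambda segments, AABR07072262 and AABR07034718, stayed under 1 FPKM in every library.

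Jchain (chr14:21155696-21184295 of Rnor_6.0) lies outside the 3 loci and is not rearranged. It had 28.5, 63.4, 19.5, 25.6 and 29.6 FPKM in SG 1 to SG 5, against 9.90, 5.50, 24.4, 13.3 and 13.3 FPKM in SHAM 1 to SHAM 5. SHAM 3 exceeded SG 3, and the other SHAM libraries lay below all SG libraries. The mean was 33.3 ± 17.3 FPKM in SG against 13.3 ± 7.0 FPKM in SHAM (± SD, n = 5 each). The log2 fold change was 1.12 ± 0.40 (SE, adjusted p = 0.994 in edgeR), from 0.82 to 1.44 when single libraries were left out. Named heavy constant RNA was 3.28 to 5.30 times the Jchain level in SG and 2.82 to 4.19 times in SHAM.

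The promoter of Jchain is shown beside that of a kappa variable gene because promoters of antibody genes are known for an octamer, ATTTGCAT, bound by the factors Oct-1 and Oct-2. Both are from RefSeq on the GRCr8 assembly, 300 bases around the gene start, and capitals mark the octamer or its first 7 letters. Jchain is at chr14:19822726-19823025 on the plus strand, and Igkv5-45l1, a RefSeq gene of the kappa locus that no member carries as its name, at chr4:103029329-103029628 on the minus strand.
Jchain: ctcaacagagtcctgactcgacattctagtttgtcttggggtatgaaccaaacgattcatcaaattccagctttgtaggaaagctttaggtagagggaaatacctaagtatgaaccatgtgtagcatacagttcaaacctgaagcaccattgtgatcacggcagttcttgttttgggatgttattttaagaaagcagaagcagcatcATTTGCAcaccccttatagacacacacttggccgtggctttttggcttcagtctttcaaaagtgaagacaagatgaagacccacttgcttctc
Igkv5-45l1: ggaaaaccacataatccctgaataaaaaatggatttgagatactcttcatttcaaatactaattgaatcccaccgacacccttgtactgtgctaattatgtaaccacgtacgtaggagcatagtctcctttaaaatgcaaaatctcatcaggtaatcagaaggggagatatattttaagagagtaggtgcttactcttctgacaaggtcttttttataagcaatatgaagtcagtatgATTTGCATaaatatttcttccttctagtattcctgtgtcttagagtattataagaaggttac
The full octamer, searched as ATTTGCAT or ATGCAAAT, was in the Igkv5-45l1 window and in 595 of all 33469 windows (1.78%). It was not in the Jchain window, which held only ATTTGCA. That shorter form, or TGCAAAT on the other strand, was in 4.05% of windows. Of 103 member names 3 had a RefSeq promoter, and the other 2 are Ighmbp2 and Iglon5.

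The remaining 33 members carry no immunoglobulin annotation, except that LOC100362453 has an antigen-binding term at odds with its description, and the groups overlapped in their summed level. Their summed level was 42.2 to 58.6 FPKM in SG and 37.2 to 64.0 FPKM in SHAM, with the 3 LOC100910275 isoforms of the Ighm cluster counted in. The mean was higher in SG for 24 of the 33 and lower for 8, and 1 was at 0 in every library. Ighmbp2, a DNA and RNA helicase, and Iglon5, a neural adhesion molecule, entered by the first letters of their names alone. LOC691113, described as a hypothetical protein, had 14.3 ± 3.5 FPKM in SG against 14.4 ± 4.3 FPKM in SHAM (± SD, n = 5 each), with a log2 fold change of -0.18 ± 0.18 (SE). LOC100911837, similar to the histone chaperone HIRA, had -0.08 ± 0.12, and LOC102546716, similar to a nuclear kinase substrate, -0.32 ± 0.43. LOC100362453, similar to the catalytic subunit of phosphatase 2A, had 0.07 ± 0.61. Of the 8 that were tested, the largest fold change was that of AABR07065780, in the heavy chain locus, at 1.07 ± 0.43 (SE, adjusted p = 0.994 in edgeR). Among those too low to test, AABR07065818 (start 142756839) had 1.12, 1.68, 1.02, 0.497 and 0.853 FPKM in SG 1 to SG 5, against 0.244, 0, 0.517, 0 and 0 FPKM in SHAM 1 to SHAM 5, and was picked out after its values were seen. The 2 immunoglobulin segments with the smallest p-values on the lower side, AABR07065750 (start 140101861) and AABR07065651/AABR07065656, had log2 fold changes of -0.98 ± 1.24 and -0.52 ± 0.79, and without SHAM 3 both were positive, at 0.25 and 0.28.

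No tested gene passed in edgeR with all 10 libraries. A mean of 1 FPKM or more over the 10 libraries was required for testing, and 36 of the 146 members and 11283 genes in all met it. AABR07065782 at 1.04 FPKM was just inside, and AABR07065772 (start 140641757) at 0.955 FPKM just outside. A member that is high in SG alone can pass that filter, so the counts that follow describe the 36 and not all members. In edgeR's quasi-likelihood test with Benjamini-Hochberg adjustment 0 of 36 members were called at an adjusted p of 0.05, against 0 of 11283 genes (0%). At an unadjusted p under 0.05, 14 members were higher in SG and 0 lower, where 2.75% of all genes were higher and 1.82% lower. DESeq2 called 2 members, Ighg1 and the lambda constant gene, among 16 genes (0.142%), and at an unadjusted p under 0.05 it had 15 members higher and 0 lower (3.42% and 2.22% of all genes). The test in limma on log2(FPKM + 0.5) called 0 members and 0% of genes. All FPKM of SG were above all FPKM of SHAM for 3 members, against 1.31% of all genes. The fold change was above 0 for 30 members (47.9% of all genes) and at least 1 on the log2 scale for 15 (0.851%). The 3 without overlap were the lambda constant gene, AABR07065768/AABR07065772/AABR07065773 and AABR07065823 (start 142932678).

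The median log2 fold change was 0.76 over the 36 members and -0.01 over all genes. By annotation it was 1.02 for 28 members with an immunoglobulin term or Jchain, of which 26 were positive, and -0.03 for 8 without. Because the members were proposed with the SG and SHAM values of these libraries in view, these counts are no independent support. They also rest on SG 2 and SHAM 3: without SG 2 the median of the 36 was 0.21 and 6 were at an unadjusted p under 0.05, without SHAM 3 they were 1.15 and 16, and without both, a choice made after seeing the data, 0.72 and 15.

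**Figure D4:**
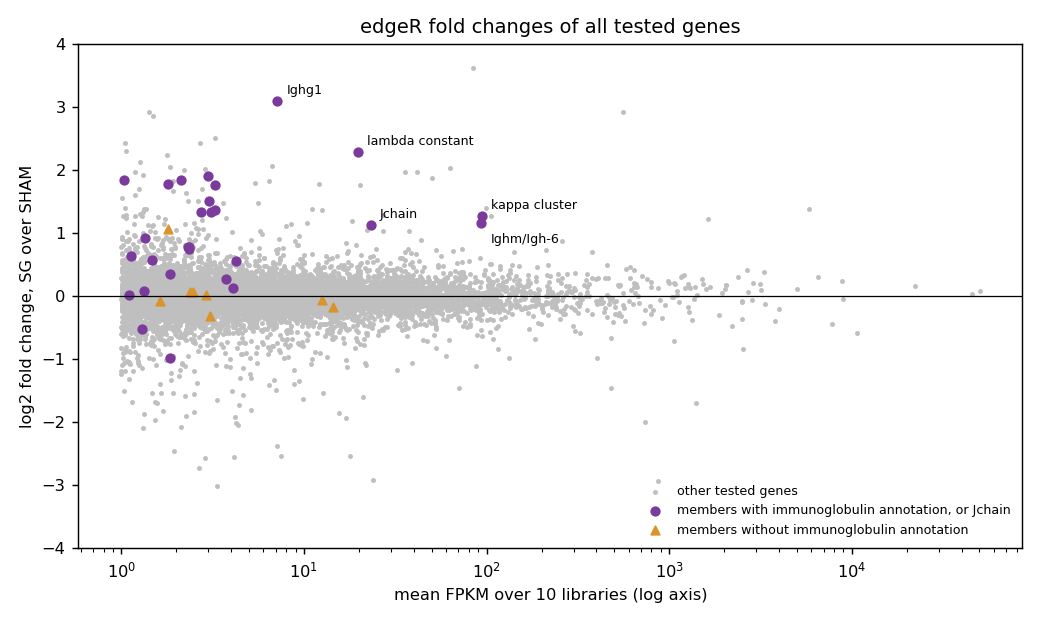
Log2 fold change of SG over SHAM in edgeR against mean FPKM (log axis) for the 11283 tested genes, with 28 immunoglobulin members or Jchain as circles and 8 members without annotation as triangles; 4 genes beyond 4 on the log2 scale fall outside the axis. Circles lie mostly above 0, with Ighg1 at 3.09, and the triangles lie around 0 but for AABR07065780 at 1.07.

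Genes that mark the cells making antibody were low or did not pass the test. Of the plasma cell list 14 of 15 genes were found under the names used and 7 were tested, with 0 called, 1 positive, 6 negative and a median log2 fold change of -0.11, against -0.01 for all genes. Over all 14, with the untested genes taken from the fit without a level filter, the sign of the median was the other way. That median was 0.14, with 8 positive and 6 negative, and the 7 untested genes were all positive. The tested ones are also made by hepatocytes or other liver cells. Xbp1, a driver of the secretory programme, had 83.5 ± 25.4 FPKM in SG against 98.5 ± 48.2 FPKM in SHAM. Sdc1, which encodes the surface marker syndecan-1, had 43.3 ± 7.0 FPKM in SG against 37.8 ± 12.96 FPKM in SHAM (± SD, n = 5 each). Fkbp11, Txndc5 and Creld2, which serve protein folding in the endoplasmic reticulum, had log2 fold changes of -0.07 ± 0.08, -0.11 ± 0.14 and -0.28 ± 0.26 (SE). Ell2, an elongation factor, had -0.09 ± 0.19, and Cd38, a surface enzyme, -0.49 ± 0.32, which was -0.09 without SHAM 5.

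The genes more restricted to plasma cells were low. Mzb1, a chaperone of antibody assembly, had 0.609, 2.60, 0.419, 0.866 and 0.690 FPKM in SG 1 to SG 5, against 0, 0.470, 0.646, 0.736 and 0.921 FPKM in SHAM 1 to SHAM 5. SG 2 stood apart and the other libraries were interleaved. Tnfrsf17, the BCMA receptor, had 0.161 ± 0.069 FPKM in SG against 0.091 ± 0.075 FPKM in SHAM, and Pou2af1, a coactivator at octamer promoters, 0.409 ± 0.243 FPKM in SG against 0.208 ± 0.117 FPKM in SHAM (± SD, n = 5 each). In the fit without a level filter their log2 fold changes were 0.77 ± 0.81, 0.70 ± 0.80 and 0.84 ± 0.49 (SE).

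Markers of B cells before they become plasma cells were low, with a mean under 1 FPKM over the 10 libraries for all found but Cd22. Cd22 had 1.69 ± 1.18 FPKM in SG against 1.72 ± 0.82 FPKM in SHAM (± SD, n = 5 each). Among 15 genes found, a single one was tested, Cd22, an inhibitory receptor, with a log2 fold change of -0.18 ± 0.36 (SE, adjusted p = 0.994 in edgeR). Cd79b, part of the B cell receptor, had 0.058 to 0.339 FPKM in SG and 0.041 to 0.267 FPKM in SHAM. Ms4a1, which encodes CD20, had 0.175, 0.287, 0.203, 0.265 and 0.217 FPKM in SG 1 to SG 5, against 0.039, 0.039, 0.134, 0 and 0.195 FPKM in SHAM 1 to SHAM 5. Its log2 fold change in the fit without a level filter was 1.35 ± 0.78 (SE). Over all 15, with the untested genes taken from that fit, 8 were positive and 7 negative. Their median was 0.20, against 0.01 for all genes in the fit without a level filter. Pax5 and Tnfrsf13c were the lowest, at -1.47 ± 1.64 and -1.17 ± 1.37 (SE). Cd37, a tetraspanin of leukocytes, had 1.19 ± 0.41 FPKM in SG against 0.770 ± 0.285 FPKM in SHAM. The summed level of the list was 3.77 to 9.35 FPKM in SG and 2.48 to 8.09 FPKM in SHAM.

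Antibody receptors and carriers did not pass the test, and several were abundant. Of 9 tested genes 0 were called, 2 were positive and 7 negative, with a median log2 fold change of -0.04. Pigr had 529.5, 586.8, 781.5, 780.8 and 659.9 FPKM in SG 1 to SG 5, against 778.3, 845.1, 418.4, 598.7 and 557.0 FPKM in SHAM 1 to SHAM 5, and its log2 fold change was 0.05 ± 0.16 (SE). SHAM 3, the SHAM library with the most antibody RNA, had the lowest Pigr of all libraries. Fcgrt, the neonatal Fc receptor that recycles IgG, had -0.01 ± 0.13, and Fcgr2b, the inhibitory IgG receptor of sinusoidal endothelium, -0.01 ± 0.23. Asgr1 and Asgr2, the asialoglycoprotein receptor of hepatocytes, had -0.04 ± 0.11 and 0.06 ± 0.10. The activating receptor genes Fcgr1a, Fcgr3a and Fcer1g had -0.32 ± 0.37, -0.87 ± 0.48 and -0.45 ± 0.45, and without SHAM 5 they had 0.16, -0.20 and 0.17. Trim21, a cytosolic antibody receptor, had -0.22 ± 0.31, and 0.22 without SHAM 5. SHAM 5 was the highest library for these 4 genes. Of the untested pair, Fcmr, the IgM Fc receptor, had 0.323, 0.891, 0.390, 0.164 and 0.160 FPKM in SG 1 to SG 5, against 0.120, 0.071, 0.084, 0.102 and 0.308 FPKM in SHAM 1 to SHAM 5. SHAM 5 lay within the SG range and the other SHAM libraries below it, and the log2 fold change without a level filter was 1.36 ± 0.58 (SE). Fcamr, a receptor for IgA and IgM, stayed under 0.1 FPKM in every library.

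**Figure D5:**
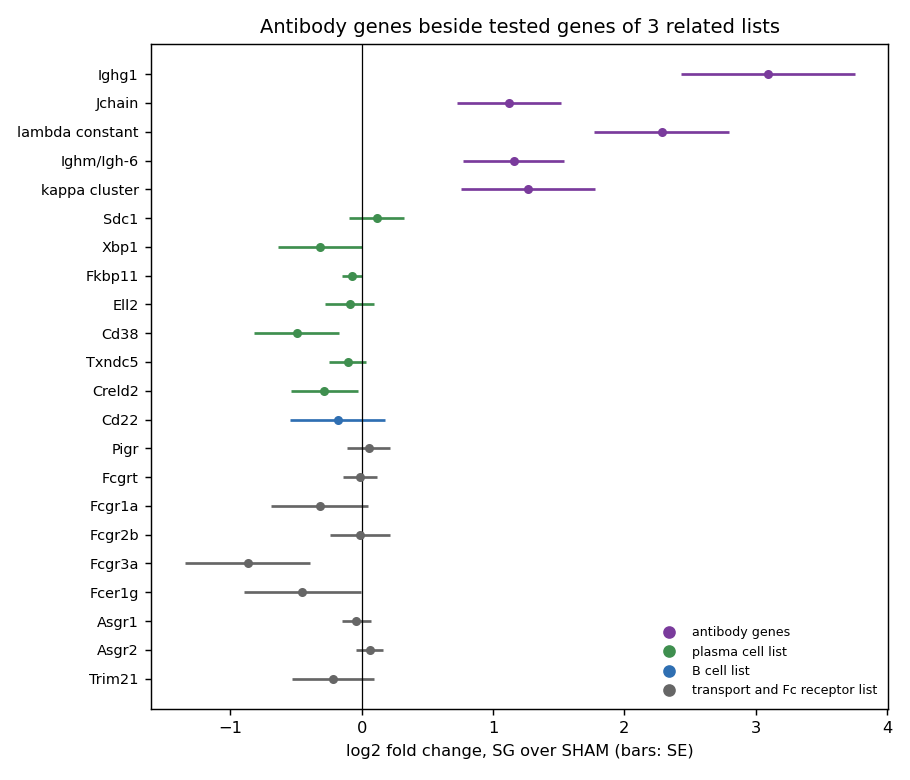
Log2 fold change of SG over SHAM in edgeR, with bars of 1 SE, for 5 antibody genes and for the tested genes of the plasma cell, B cell and antibody transport lists. The antibody genes lie between 1.12 and 3.09, and the other 17 genes between -0.87 and 0.12. The antibody genes were proposed after their higher SG levels had been seen. List genes with a mean under 1 FPKM are not drawn. Of these, the 7 plasma cell genes were all positive in the fit without a level filter, and the B cell genes went both ways.

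Signals that guide or sustain antibody-making cells were mostly low. Of 17 genes 4 were tested, with 0 called. Cxcl12, a chemokine that holds plasma cells in their niche, had 41.1, 68.8, 36.3, 34.0 and 31.2 FPKM in SG 1 to SG 5, against 32.3, 28.6, 21.1, 33.3 and 19.5 FPKM in SHAM 1 to SHAM 5. The groups overlapped and SG 2 was highest. Its log2 fold change was 0.60 ± 0.23 (SE, adjusted p = 0.994 in edgeR), and 0.36 without SG 2. Tnfsf13, which encodes the survival factor APRIL, had 0.40 ± 0.33, and 0.12 without SG 2. The other tested genes, Itga4 and Tgfb1, had -0.18 ± 0.31 and -0.10 ± 0.31 (SE). Of the recombination and class switch genes, Ung and Msh6, which also repair DNA in other cells, had log2 fold changes of 0.02 ± 0.12 and -0.11 ± 0.12 (SE).

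Outside the members, 5 of 11247 tested genes were most like the named heavy and lambda constant level in log2(FPKM + 0.5) over the 10 libraries. They were RGD1563231 (Pearson's r = 0.945), AABR07051548 (0.935), LOC100360846 (0.913), AC128212 (0.908) and AABR07051741 (0.901). RGD1563231, described as similar to a kappa variable chain, AABR07051548 and AABR07051741 lie on chromosome 3 and are annotated to antigen binding. LOC100360846 is described as similar to a proteasome subunit, and AC128212 has no description. RGD1563231 had 2.43 ± 1.21 FPKM in SG against 0.987 ± 0.755 FPKM in SHAM, and LOC100360846 1.49 ± 0.13 FPKM in SG against 1.10 ± 0.17 FPKM in SHAM (± SD, n = 5 each). These correlations are descriptions over libraries that also differ in group.

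Library depth was 77617460 to 92110190 estimated counts in SG and 65824088 to 85520959 in SHAM. Hepatocyte markers summed to 37585 to 49308 FPKM in SG and 32893 to 45082 FPKM in SHAM, as liver would give. Macrophage and Kupffer cell markers, 8 of 9 in the table and all above 1 FPKM on average, summed to 198.2 to 442.0 FPKM in SG and 170.0 to 386.7 FPKM in SHAM. T and NK cell markers summed to 14.3 to 26.9 FPKM in SG and 11.7 to 32.2 FPKM in SHAM. Cd4 alone supplied 16.2 FPKM of this sum in SG 2 and 17.8 FPKM in SHAM 5. The T cell genes Cd3d, Cd3e and Cd3g stayed under 1 FPKM in every library, so the sum says little about T cells. Both lists were highest within SG in SG 2, the library with the most antibody RNA: the other 4 SG libraries had 198.2 to 224.7 FPKM of macrophage markers and 14.3 to 16.8 FPKM of T and NK cell markers. Within SHAM both lists were highest in SHAM 5, at 386.7 and 32.2 FPKM. SHAM 3, the SHAM library with the most antibody RNA, had 219.3 and 13.7 FPKM. Lyz2, the lysozyme of macrophages, had 81.6 FPKM in SG 2 and 14.6 to 20.1 FPKM in the rest of SG. Its fitted difference was 1.05 ± 0.48 (SE, log2 scale) with all libraries and 0.26 without SG 2. Lyz2 had the largest fold change of the 8 macrophage markers, of which 3 were positive, 5 negative and 0 called. Their median log2 fold change was -0.20, against -0.01 for all genes. The part of these markers in the antibody values was not tested. Red blood cell markers, 5 of 10 in the table under the names used, summed to 136.8 to 491.0 FPKM in SG and 245.9 to 1215 FPKM in SHAM, with a median log2 fold change of -1.11 and 0 called. The red blood cell median had the opposite sign to the antibody genes, and its part in the antibody values was not tested.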

How the data were processed

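Rat liver RNA, about 5 µg per library with an integrity number above 7.0, was depleted of ribosomal RNA and sequenced as paired ends with a mean insert of 300 bp, per the labels. Per the submitters' processing notes, HISAT2 2.0.4 and StringTie 1.3.4 were among the tools, with cutadapt 1.9 and FastQC 0.10.1, and the build was Rnor_6.0. The authors deposited FPKM and estimated counts for 51430 isoforms; the estimated counts are whole numbers proportional to FPKM times length within a library, so similar segments share reads by estimate and near-identical segments are uncertain. The sources used here do not state whether counting used strand.

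FPKM and counts were summed per gene identifier and library. Class sums, ratios and shares are descriptions. edgeR 4.0.16 (R 4.3.3; quasi-likelihood, two-sided, trimmed mean of M values, Benjamini-Hochberg over all genes) was fitted to the 10 libraries, 5 per group, on genes with a mean of at least 1 FPKM. DESeq2 1.42.0, its size factors, limma 3.58.1 at pseudocounts of 0.5 and 0.1, no filter, a replicate block and each library left out were alternatives. On simulated data edgeR recovered 183 of 200 4-fold changes with 10 false calls, in this comparison over 11283 genes.

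The members and lists were chosen with earlier results of these data known. Genes were named by rule: Jchain, the constant genes, the 5 most abundant segments per locus (4 for lambda), the 5 smallest p-values in each direction, and tested genes of the plasma cell, B cell and transport lists; other list genes and AABR07065823 were named after their values were seen. Permutation tests of relations among class sums had been planned and are not reported, because the members were chosen with the levels known. Sequences are from RefSeq, GRCr8.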

Additional observations from a re-analysis of the deposited data

Results flagged for a closer look

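In groups of 5, a library was singled out when its gap to the nearest other exceeded 0.71 of the group's range. For independent, normally distributed values, chance alone singles out about 1 in 20 groups. The values here were FPKM and ratios without a log, from the same libraries throughout, so the counts below cannot be set against that rate. Of 132 groups checked, 25 were, and 17 of these were SG 2. The values overlap, since class sums contain the genes.

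SG 2 was apart in the kappa cluster (303 FPKM), kappa segments (34.8), named lambda constant genes (71.6), lambda segments (16.0), Jchain (63.4), all immunoglobulin members (920) and all members (978). Among single genes it was apart in the Ighm and Igh-6 cluster (265 FPKM), its end at 185 kb (19.2), the lambda constant gene (69.9), AABR07065837 (11.7), AABR07061052 (7.16) and the AABR07034730 segments at 85532526 (11.6) and 85508300 (3.58), and in Mzb1 (2.60), Cd38 (5.34) and Cd22 (3.73). SHAM 3 was apart at the 95 kb end of the Ighm and Igh-6 cluster (43.4 FPKM), in AABR07065789 at 141320809 (8.99), in AABR07065750 at 140101861 (7.72) and in the ratio of kappa cluster to lambda constant (11). SHAM 5 was apart in Cd38 (8.96 FPKM), Fcgr1a (5.92) and Fcer1g (17.3), and SG 3 in Fcgrt (47.2).

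Transcripts antisense to Igh-6, 2 isoforms that no comparison used, had 6.47, 22.2, 4.73, 9.21 and 14.9 FPKM in SG 1 to SG 5, against 3.77, 2.0, 0, 0 and 3.24 FPKM in SHAM 1 to SHAM 5. Every SG library was above every SHAM library (mean 11.5 FPKM in SG), which was the condition for listing rows outside the members here. The separation is thus no finding of its own, and 1.31% of all tested genes showed the same. Without a record of stranded counting, reads of Igh-6 and of its antisense partner cannot be told apart.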

How the results depend on the processing

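Over 642 recomputed values, 614 kept their direction and their side of the threshold or stayed within the spread between replicates. This count is a weak check. No gene was called in the main fit, so most could only stay uncalled. A class difference was kept when it moved by less than its pooled SD. For kappa segments, with a pooled SD of 1.21, a move from 0.94 to 0.44 with 1 library left out was kept. The count of members called at an adjusted p of 0.05 was 0 in edgeR and 2 in DESeq2, and the count of all genes called 0 and 16. Leaving out single libraries gave 0 members throughout and 0 to 1 genes overall. DESeq2 had 15 members at an unadjusted p under 0.05, all higher in SG, edgeR without a level filter 23 higher and 1 lower of 143 members, and edgeR without SG 2 had 6.

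Class differences on the log2 scale stayed positive in CPM, TPM and exact-match isoforms, except for members without immunoglobulin annotation (-0.09 in CPM against 0.12 in FPKM). When single libraries were left out they ranged from 1.41 to 2.01 for named heavy constant genes, 1.10 to 1.87 for the kappa cluster, 2.01 to 2.59 for lambda constant genes and 1.09 to 1.62 for Jchain. From counts, the mean share of Ighg1 was 5.60% in SG and 1.91% in SHAM, against 8.42% in SG and 2.95% in SHAM from FPKM.

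Some uncalled genes changed sign. With single libraries left out, the log2 fold change was -0.13 to 0.45 for AABR07065684/AABR07065693/AABR07065699, -0.0434 to 1.44 for AABR07060979, -0.32 to 0.95 for AABR07061005 at 102643934, -1.99 to 0.25 for AABR07065750 at 140101861 and -0.81 to 0.28 for AABR07065651/AABR07065656. Without both SG 2 and SHAM 3, AABR07065750 had 0.57 and AABR07065651/AABR07065656 0.06. In limma, at pseudocounts of 0.5 and 0.1, LOC691113 had 0.0093 and 0.0102 and LOC100911837 had 0.0131 and 0.0158. The cause was not tested.

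Replicate numbers did not pair the libraries: same-numbered deviations correlated at -0.228 to 0.122, and 1 of 5 SG libraries correlated best with its own number. With the replicate block, 0 members and 0 genes were called, and 7 members had an unadjusted p under 0.05. The relations among class sums were not run. At 1 FPKM and below, few reads limit every segment.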

Other observations

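Antibody-like RNA also lay outside the members, in rows chosen after the data were seen. On chromosome 3, between 16 and 21 Mb, 45 isoforms annotated to immunoglobulin production or antigen binding summed to 33.6, 69.7, 14.8, 27.0 and 30.2 FPKM in SG 1 to SG 5, against 9.88, 8.15, 38.8, 17.4 and 15.5 FPKM in SHAM 1 to SHAM 5. SG 2 and SHAM 3 were the highest in their groups. RGD1563231, AABR07051548 and AABR07051741, named above for their likeness to the constant genes, are among them.

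Within the 3 loci, 20 spliced isoforms that match no annotated gene summed to 39.4, 65.1, 18.9, 27.7 and 40.1 FPKM in SG 1 to SG 5, against 8.68, 8.83, 25.2, 14.0 and 21.3 FPKM in SHAM 1 to SHAM 5. Of the SG libraries 4 were above the highest SHAM library, and SG 3 was below SHAM 3 and SHAM 5. These isoforms are part of no value in the comparison of antibody classes.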
